A study of Rattus norvegicus with 6 samples.

Results

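Il6 and Ccl2, the genes of a cytokine and a chemokine that signal inflammation, were followed in cultured heart muscle cells treated with erastin. They are 2 of the 34052 features of the deposited table and were found by gene ID, ENSRNOG00000010278 for Il6 and ENSRNOG00000007159 for Ccl2. Both passed the filter on low values of at least 1 FPKM in at least 3 of 6 libraries, which left 13576 features to test. Il6 passed it through the 3 erastin libraries and 1 control library, so its place among the tested features rests on the group where it is high. FPKM, the unit of the table, are fragments divided by the length of a feature and by the depth of its library. The cells were neonatal rat ventricular cardiomyocytes, the beating muscle cells of the newborn rat ventricle, kept in culture. The treated group received 10 µM erastin for 24 h (n = 3 libraries), and was compared with control cells (n = 3 libraries), which the deposited comparison calls vehicle. The labels name no genetic change in either group and name no culture, animal or litter behind a library. The p-values thus rest on the spread between libraries, and that spread may be technical only. Erastin inhibits the transporter that brings cystine into the cell, which starves the cell of glutathione and can start ferroptosis, a death by iron-dependent oxidation of membrane lipids. The study used the comparison to ask how gene expression changes with ferroptosis of cardiomyocytes.

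Interleukin-6, the product of Il6, is a secreted cytokine that binds its receptor together with the shared subunit gp130, which switches on the JAK kinases and the transcription factor STAT3. In the heart it is known as a signal made by muscle cells, fibroblasts and macrophages under injury. CCL2, also called MCP-1, is a secreted chemokine that draws monocytes into tissue through the receptor CCR2. Both genes are classic targets of NF-kB, a transcription factor activated by cytokines, microbial products and many stresses. Messenger RNAs of both proteins are known to be short-lived, so their levels can change within hours.

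The promoter of Il6 is shown because the gene rose with erastin and because its control region is well known. It was matched by symbol in the RefSeq promoter table of build GRCr8, which has no entry for Ccl2. The 250 bases before the annotated start lie at chr4:5894576-5894825 on the minus strand and are written 5′ to 3′ on the strand of the gene. Capitals mark matches to the kappaB, cAMP response element and C/EBP motifs.
Il6 promoter: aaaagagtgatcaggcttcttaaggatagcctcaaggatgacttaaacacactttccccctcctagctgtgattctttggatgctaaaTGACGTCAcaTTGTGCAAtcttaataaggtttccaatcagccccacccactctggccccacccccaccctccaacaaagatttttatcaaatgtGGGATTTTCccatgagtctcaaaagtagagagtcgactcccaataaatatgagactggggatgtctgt

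Positions were counted back from the start, with -1 as the last base before it. The kappaB motif, searched only as GGGANNTTC, matched from -68 to -60 with the letters GGGATTTTC. This pattern was present, on either strand, in 3.36% of the 33469 windows of the same length in the table. Other forms of the kappaB motif were not searched. The cAMP response element TGACGTCA, a site of the CREB and ATF families, matched from -162 to -155 and was present in 1.59% of windows. The C/EBP motif TTGCNNAA matched the opposite strand from -152 to -145 with the letters TTGCACAA and was present in 9.22% of windows. No match was found on either strand for the AP-1 motif TGANTCA, the antioxidant response element core TGACNNNGC, the C/EBP-ATF response element TGATGNAA, the GC box GGGCGG or the TATA box TATAAA. They were present in 6.34%, 10.1%, 3.40%, 30.5% and 12.9% of windows, in this order. The matches, and the motifs without a match, describe the letters of this window of 250 bases only. Bases further upstream were not searched. The matches do not show that a factor was bound.

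Il6, which encodes the cytokine, was a low transcript that was 5.26-fold higher with erastin. Its level was 3.78, 6.13 and 4.39 FPKM in erastin replicates 1 to 3, against 0.748, 1.22 and 0.748 FPKM in control replicates 1 to 3. Each erastin library lay above each control library, and the lowest erastin value was 3.10 times the highest control value. The group means were 4.76 ± 1.22 FPKM in erastin and 0.905 ± 0.272 FPKM in control libraries (SD, n = 3 each).

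On the log2(FPKM + 1) scale Il6 rose by 1.59 (SE 0.168, 95% interval 1.20 to 1.98, limma adjusted p = 7.24e-05). The added 1 is large beside the control level of Il6, so this value understates the change, and the fold of mean FPKM was 2.40 on the log2 scale. With a pseudocount of 0.01 the log2 fold change of Il6 was 2.39 (limma adjusted p = 8.57e-05). With no filter on low values, over the 22354 features above 0 in at least 1 library, the log2 fold change of Il6 was also 1.59 (limma adjusted p = 0.000523). An exact two-sided permutation test of the 6 libraries gave p = 0.1, the smallest p that 3 against 3 libraries allow.

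Reads were few for this transcript. Whole reads recovered from the FPKM steps, at a counted length of 1045 bases, were 44, 77 and 51 for Il6 in erastin replicates 1 to 3, against 9, 19 and 9 in control replicates 1 to 3. Exact 95% Poisson intervals, which cover counting error only, ran for Il6 from 2.74 to 5.07, 4.84 to 7.66 and 3.27 to 5.77 FPKM in the erastin libraries and from 0.342 to 1.42, 0.734 to 1.90 and 0.342 to 1.42 FPKM in the control libraries. The intervals of the 2 groups did not overlap. Within each group every interval overlapped every other, which does not test whether the libraries of a group were equal.

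Ccl2, which encodes the chemokine, was an abundant transcript that was 1.59-fold higher with erastin. Its level was 184, 229 and 204 FPKM in erastin replicates 1 to 3, against 130.5, 142 and 115 FPKM in control replicates 1 to 3. The groups did not overlap here either, but the margin was narrower than for Il6, with the lowest erastin value at 1.30 times the highest control value. The means were 206 ± 22.8 FPKM in erastin and 129 ± 13.2 FPKM in control libraries (SD, n = 3 each). On the log2(FPKM + 1) scale Ccl2 rose by 0.67 (SE 0.106, 95% interval 0.41 to 0.93, limma adjusted p = 0.00194), and the exact two-sided permutation p was again 0.1.

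The depth behind Ccl2 was far greater, with 1713, 2302 and 1892 recovered reads in erastin replicates 1 to 3, against 1254, 1763 and 1107 in control replicates 1 to 3, at a counted length of 835 bases. Its Poisson intervals were 175 to 193, 220.1 to 239 and 195 to 213 FPKM in the erastin libraries and 123 to 138, 135 to 148 and 109 to 122 FPKM in the control libraries. No 2 erastin intervals overlapped, and control replicate 3 lay below both other control libraries. The spread of Ccl2 within a group was thus larger than counting error alone.

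**Figure D1:**
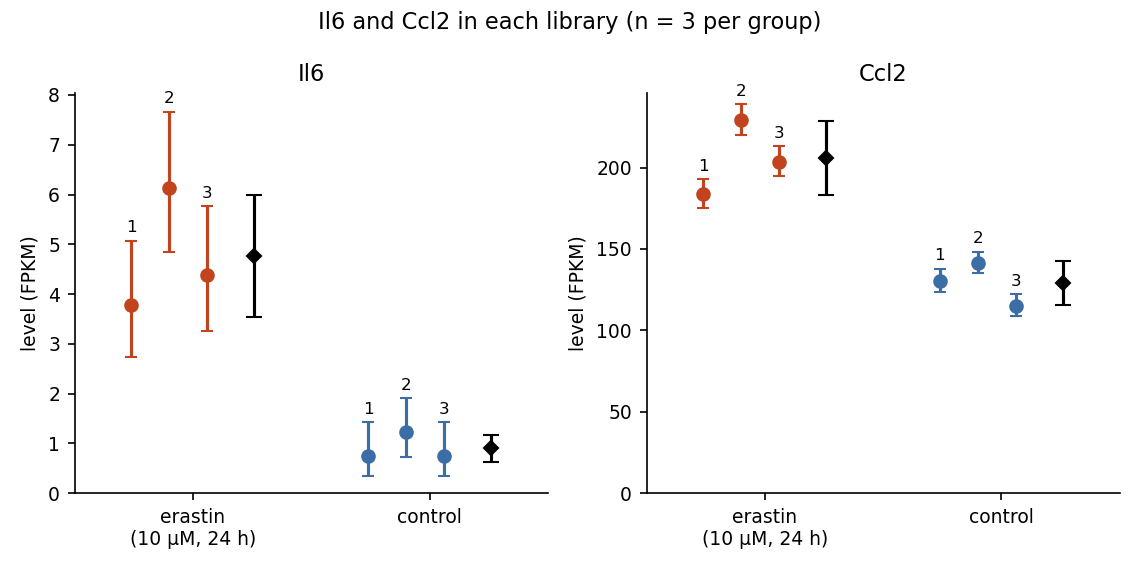
Level of Il6 and Ccl2 in FPKM in each library, with erastin left of control in each panel. Coloured points are libraries, numbered by replicate, with exact 95% Poisson intervals, and black diamonds are means ± SD (n = 3). The 3 erastin libraries lie above the 3 control libraries for both genes, by 3.10 times or more for Il6 and by 1.30 times or more for Ccl2.

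Both genes were thus called higher, 2 of 2, in a comparison that called much of the transcriptome. Of the 13576 tested features, 42.3% were called higher and 66.4% were called in either direction at an adjusted p under 0.05. Every erastin library was above every control library in 45.7% of tested features. A call, or groups that do not overlap, was therefore common and does not set either gene apart. A call with a log2 fold change of at least 1 was reached by Il6 and by 5.15% of tested features, and not by Ccl2. The median log2 fold change of all tested features was 0.14, so part of an increase on this scale can be shared by the typical feature. This median differed with level, as given below.

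By log2 fold change on the log2(FPKM + 1) scale Il6 ranked 221 and Ccl2 ranked 1767 of the 13576 tested features. The added 1 shrinks fold changes more at low than at high levels, so the ranks, counts and medians here depend on it. With a pseudocount of 0.01 the log2 fold change was 2.39 for Il6, against 1.59, and stayed at 0.67 for Ccl2. Ranks with another pseudocount were not taken. The 2 genes stood at opposite ends of the range of levels. When tested features were put in 5 equal groups by mean FPKM, Il6 was in the lowest, which ran from 0.548 to 3.11 FPKM, and Ccl2 in the highest, which began at 38.2 FPKM. In the lowest group, where 569 features were called higher and 653 lower, 30 of 2716 features had a log2 fold change at least as large as that of Il6, itself included. The highest group had 1396 features called higher and 808 lower, and 408 of 2715 features had a log2 fold change at least as large as that of Ccl2, itself included. The median log2 fold change was 0.005 in the lowest group and 0.14 in the highest.

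**Figure D2:**
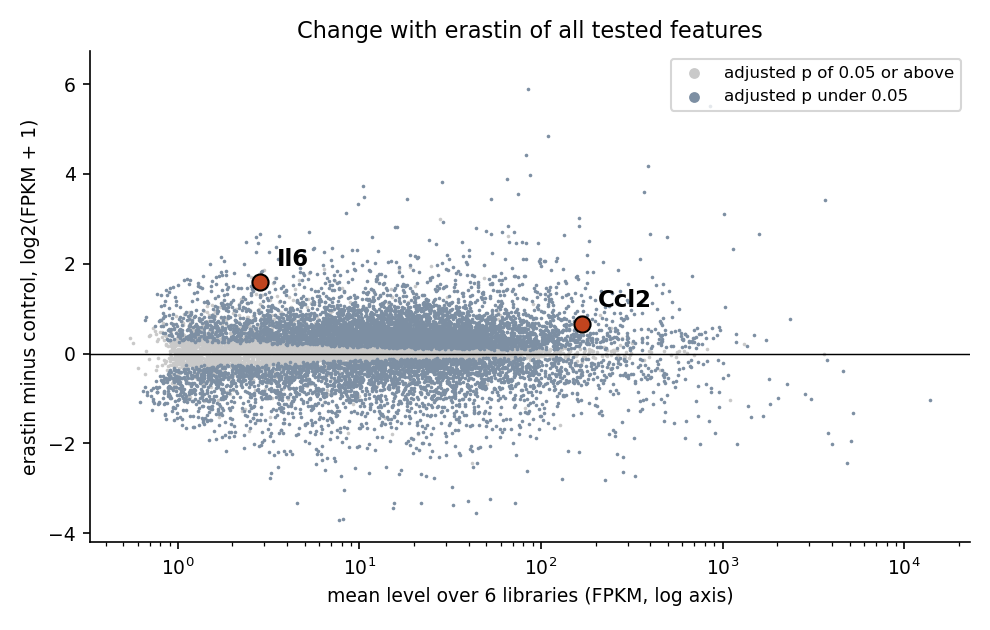
Log2 fold change of erastin against control on the log2(FPKM + 1) scale (vertical axis) against the mean level over 6 libraries in FPKM (horizontal log axis) for 13576 tested features. Il6 stands near the upper edge of the features of low level, at 1.59, and Ccl2 lies within the cloud of abundant features, at 0.67.

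The order of the levels was the same in both groups, with Ccl2 well above Il6 in all 6 libraries. Ranked by mean FPKM over all features of the table, Ccl2 was at place 394 in erastin and 624 in control libraries. Il6 was at place 9804 in erastin and 13568 in control libraries. Il6 exceeded 45.3% to 51.9% of the features above 0 in the erastin libraries, against 25.8% to 33.5% in the control libraries. For Ccl2 these shares were 97.6% to 98.2% in the erastin libraries and 96.2% to 97.1% in the control libraries. In level per length the order of the gains was the opposite of that of the folds, since the mean of Ccl2 was 76.6 FPKM higher with erastin and that of Il6 was 3.86 FPKM higher.

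The ratio of the 2 transcripts within a library asks whether they changed by different amounts. Without a pseudocount it does not depend on how the library was scaled. There were 48.7, 37.4 and 46.4 FPKM of Ccl2 for each FPKM of Il6 in erastin replicates 1 to 3, against 174, 116 and 154 in control replicates 1 to 3. The mean ratio was 44.2 ± 5.98 in erastin and 148 ± 29.6 in control libraries (SD, n = 3 each), and the groups did not overlap. With the pseudocount of 1, which brings the scaling back in, the log2 ratio was 5.18 ± 0.144 in erastin and 6.10 ± 0.120 in control libraries (SD, n = 3 each), a difference of -0.92 (exact two-sided permutation test, p = 0.1, again the smallest possible). Without a pseudocount, from reads per length, the difference in log2 ratio was -1.73. Il6 thus had the larger fold in these libraries, at the smallest p the design can give, which does not pass 0.05.

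Libraries numbered 2 had the highest level of both genes in both groups. Relative to the mean of its group on the log2(FPKM + 1) scale, Il6 was at 0.33 in erastin replicate 2 and 0.23 in control replicate 2, and Ccl2 was at 0.16 and 0.14 in the same libraries. Erastin replicate 1 was the lowest erastin library for both genes. In the control group replicate 3 was the lowest for Ccl2, while replicates 1 and 3 had equal reads of Il6. Libraries numbered 2 were also the deepest of their groups, with 12017459 reads in erastin and 14914827 in control, against 11126968 to 11149351 in the other erastin and 11506854 to 11508364 in the other control libraries. The part of depth, or of a shared preparation, in these values was not tested. Without both libraries the log2 fold change was 1.54 for Il6 (limma adjusted p = 0.000392) and 0.65 for Ccl2 (limma adjusted p = 0.00158).

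**Figure D3:**
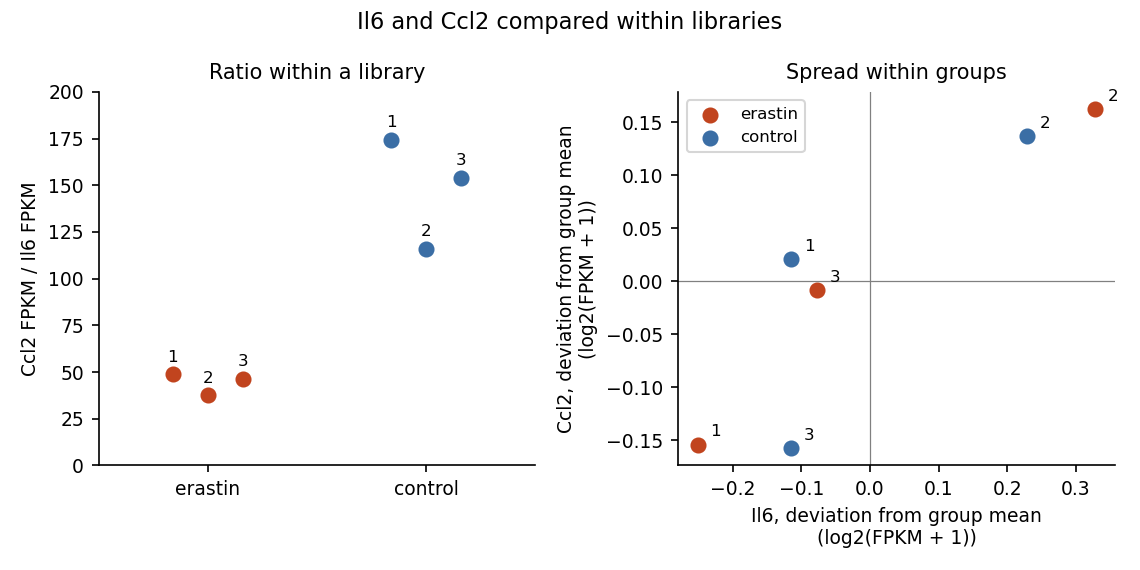
Left, Ccl2 FPKM divided by Il6 FPKM in each library, with erastin left of control and points numbered by replicate. The erastin libraries lie at 37.4 to 48.7 and the control libraries at 116 to 174. Right, deviation of each library from the mean of its group on the log2(FPKM + 1) scale, Il6 on the horizontal and Ccl2 on the vertical axis, where both libraries numbered 2 lie at the upper right.

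Both genes varied more between libraries of a group than most features did. The standard deviation within groups was 0.25 for Il6 and 0.15 for Ccl2 on the log2(FPKM + 1) scale, above those of 91.3% and 80.8% of tested features. These shares are not among features of like level. Il6 had 9 to 77 reads in a library, against 305 for the median tested feature. The part of counting error in the spread of Il6 was not tested. In FPKM the coefficient of variation of Il6 was 25.7% in erastin and 30.0% in control libraries. That of Ccl2 was 11.1% in erastin and 10.2% in control libraries.

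Many tested features had a pattern like that of Il6 or Ccl2. Over 6 libraries on the log2(FPKM + 1) scale, 4086 had a Pearson correlation above 0.9 with Il6 and 3430 with Ccl2, 66 and 22 of them above 0.99, and each correlation includes the difference between the groups. The highest for Il6 was ENSRNOG00000037871 (r = 0.998), at 2.76 ± 0.412 FPKM in erastin and 1.13 ± 0.197 FPKM in control libraries (SD, n = 3 each). For Ccl2 it was ENSRNOG00000055936 (r = 0.997), at 12.1 ± 1.92 FPKM in erastin and 6.23 ± 1.15 FPKM in control libraries (SD, n = 3 each). Il6 and Ccl2 correlated with r = 0.986 with each other, place 163 in the order of likeness to Il6 and place 38 in that to Ccl2. The other features are given by ID, as the sources used here do not pair them with gene names.

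In the RefSeq gene table of build GRCr8 neither gene overlaps another annotated gene. Toward higher coordinates, the next protein-coding genes after Ccl2 on chromosome 10 are Ccl7, Ccl11 and Ccl12, which encode related chemokines. That after Il6 on chromosome 4 is Dnajb6, which encodes a chaperone of the DnaJ family and lies on the promoter side of Il6. Reads shared between Ccl2 and these related genes were not analysed here.

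The receptors Il6ra, Il6st and Ccr2, other cytokines and chemokines, the NF-kB pathway and markers of cardiomyocytes, fibroblasts, endothelial cells and macrophages were not analysed here, because 0 of the 34052 feature IDs could be paired with a symbol in the reference table. The labelled cell type was therefore not checked against its markers. In such bulk libraries a change in the cells present and a change in RNA per cell cannot be told apart, and which cells of the culture held the Il6 and Ccl2 transcripts was not tested.

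**Figure D4:**
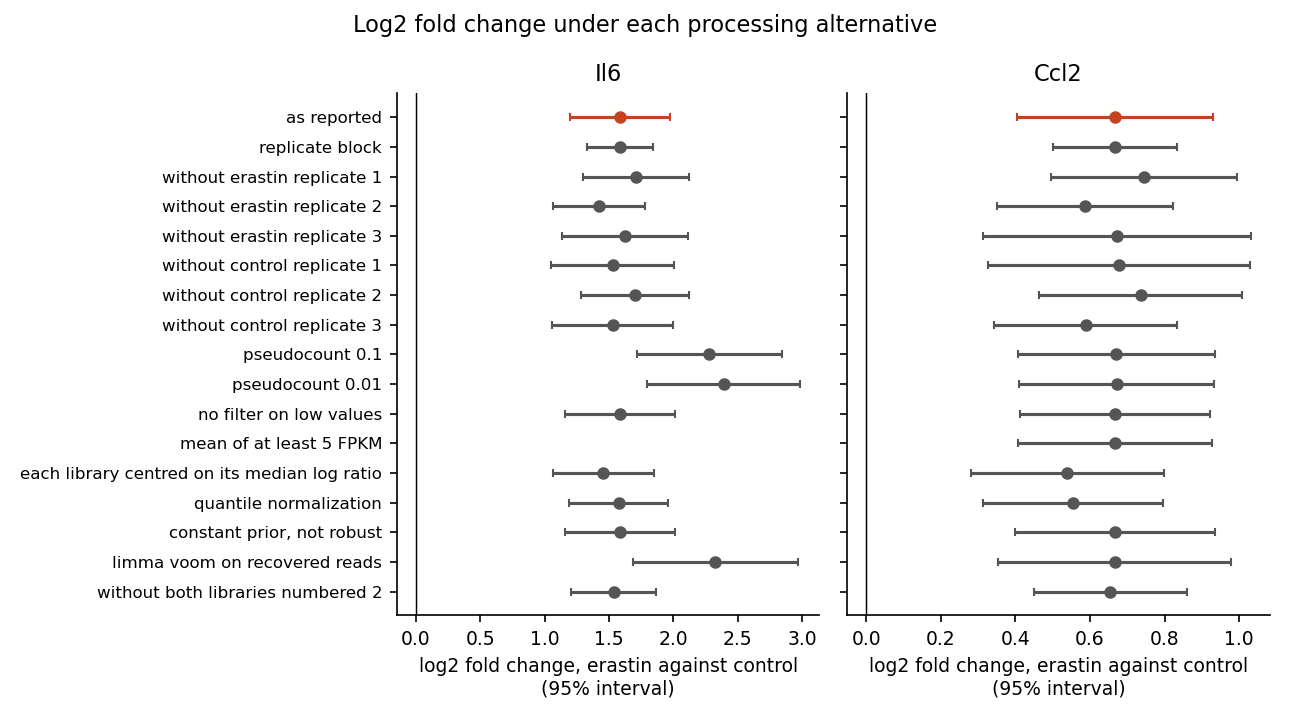
Log2 fold change of erastin against control (horizontal axis) for Il6 and Ccl2, as reported and under each processing alternative, with 95% intervals. All intervals shown lie above 0, and the values range from 1.42 to 2.39 for Il6 and from 0.54 to 0.74 for Ccl2. Il6 has no value under the filter of a mean of at least 5 FPKM, which it does not reach.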

How the data were processed

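RNA of 6 libraries of neonatal rat ventricular cardiomyocytes was grouped by sample title. Libraries were strand-marked with dUTP from poly(A) RNA and read in paired ends on a NovaSeq, per the labels' protocols. The submitters' processing notes name HISAT2 2.0.5 and DESeq2 with no role. No source used here gives the counting tool, build or annotation. The authors deposited FPKM for 34052 features, where a shift in a few abundant features moves all others. Reads and library totals were recovered from the FPKM steps (100% of values of tested features whole within a relative tolerance of 1e-06). Totals were 11149351 to 12017459 reads in erastin and 11506854 to 14914827 in control libraries.

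The test was limma 3.58.1 (R 4.3.3) on log2(FPKM + 1), trended and robust, for features that reached 1 FPKM in 3 or more libraries, with Benjamini-Hochberg adjustment over 13576 features at 0.05. It was also run on simulated data with 200 changed features, far fewer than the 9011 called here. That run therefore does not check the calls in these data. Alternatives included voom, a limma method, on recovered reads. Named features were both genes and those with the highest correlation with them. Gene lists could not be matched. Genes, lists and motifs were chosen with earlier results of these data known. Python 3.11.15, scipy 1.17.1 and matplotlib 3.10.9 were used for intervals, exact permutation tests and figures.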

Additional observations from a re-analysis of the deposited data

How the results depend on the processing

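Il6 and Ccl2 were higher with erastin at a limma adjusted p below 0.05 in all alternatives that tested them, 15 for Il6 and 16 for Ccl2. Leaving out both libraries numbered 2 was chosen after the data were seen. The log2 fold change was 1.42 to 2.39 for Il6 (adjusted p 9.89e-07 to 0.000641) and 0.54 to 0.74 for Ccl2 (adjusted p 0.0005 to 0.0113). The high values of Il6, 2.28, 2.39 and 2.33, came from pseudocounts of 0.1 and 0.01 and from voom on recovered reads, where less is added to its low control level. Centring each library on its median log ratio, a shift of 0.13, gave 1.46 for Il6 and 0.54 for Ccl2. Leaving out 1 library gave 1.42 to 1.71 for Il6 and 0.59 to 0.74 for Ccl2.

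The difference in the log2 ratio of Ccl2 to Il6 was -1.73 to -0.84 over 11 alternatives, and -0.97 to -0.84 with 1 library left out, with exact permutation p of 0.1 to 0.333, which these numbers of libraries cannot bring under 0.05. The number of called features was within 1.5 times of 9011 in 17 of 18 alternatives. A required log2 change of 1 or more in either direction gave 1344, fewer by construction. Centring moved the split of called features to 4253 higher and 4287 lower, against 5744 and 3267 as deposited.

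With the replicate block, the adjusted p in limma was 7.27e-05 for Il6 and 0.0005 for Ccl2, at log2 fold changes of 1.59 and 0.67, and 8768 features were called. The labels do not pair libraries of the same number. The correlations of their deviations over all tested features were -0.028, 0.072 and 0.027. Those between libraries of different numbers ran from -0.069 to 0.040. Whether libraries of the same number shared a preparation was not tested. The control level of Il6 rested on 9 to 19 reads per library, which limits its precision.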
